A study of Homo sapiens with 24 samples.

Results

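The genes described here encode subunits of the 5 complexes of oxidative phosphorylation (OXPHOS), in the colorectal cancer line HCT116 and its oxaliplatin-resistant derivative HCT116 oxpl-R. They were chosen by gene symbol from the table of estimated read counts, which gave 82 of 33113 genes. Of these, 69 are nuclear genes and 13 are the protein-coding genes of mitochondrial DNA. The nuclear genes comprise 38 of complex I, 4 of complex II, 1 of complex III, 10 of complex IV and 16 of complex V. The mitochondrial genes comprise 7 of complex I, 1 of complex III, 3 of complex IV and 2 of complex V. NDUFA4 was counted with complex I by its symbol, although its protein is now placed in complex IV. The table used here ends at the gene SETP6 in alphabetical order, so the UQCR genes of complex III were not analysed here. All 82 genes were among the 19452 that had a count in at least 1 library and were tested.

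RNA was sequenced from 24 cultures, in 8 groups of 3 biological replicates. Both lines carry the genotype label TetOn-E1A, in which doxycycline switches on the adenoviral E1A gene, and each line was left untreated, given doxycycline, given oxaliplatin, or given both. Doxycycline was used at 0.5 µg/mL and was added 3 h ahead of oxaliplatin, which stayed on the cells for 24 h at 25 µM. The resistant line was derived from the parental one by repeated pulses of the drug and is described by the study as hypotetraploid, so both the history of selection and the chromosome number separate the lines in every comparison between them. The replicate label does not say how far back the cultures were separate, and p-values therefore measure the spread between these samples. In bulk RNA, fewer cells of a kind and less RNA per cell cannot be told apart.

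OXPHOS passes electrons from NADH through complex I, or from succinate through complex II, to complex III, cytochrome c and complex IV, and complex V uses the proton gradient so made to produce ATP. Complex II is built from nuclear gene products alone, whereas the other complexes combine nuclear subunits with a few core subunits that are encoded in mitochondrial DNA. The nuclear genes are transcribed singly from promoters on many chromosomes, and the mitochondrial genes are cut from long transcripts of a small circular genome, so the products of both genomes have to meet in the same complexes.

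The mitochondrial genes are tightly packed on a circle of 16569 bases, and 12 of the 13 lie on 1 strand. MT-ND6, a core subunit of complex I at chrM:14149-14673, is read from the minus strand and MT-CYB, the cytochrome b of complex III at chrM:14747-15887, from the plus strand next to it. G made up 35.6% of the MT-ND6 gene on its coding strand and 6.28% to 16.2% of the other 12. The sources used here do not say whether the counting used strand, so reads of MT-ND6 and of transcripts antisense to it cannot be told apart. MT-ATP8 and MT-ATP6, both subunits of complex V, share 46 bases at chrM:8527-8572, from the start codon of MT-ATP6 onward, and reads within this stretch can be counted to either gene.
MT-ATP8 and MT-ATP6 overlap: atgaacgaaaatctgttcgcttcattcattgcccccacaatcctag
MT-ND4L and MT-ND4 share 7 bases at chrM:10760-10766. Nuclear copies of mitochondrial genes can also take reads, and these pseudogenes held 4.68% as many counts as MT-ATP6 and at most 0.372% as many as any other mitochondrial gene, while pseudogenes of nuclear members held at most 0.66% (NDUFV2).

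Promoters from RefSeq (GRCh38.p14) were matched for 56 of the 69 nuclear genes, in windows from 250 bases before to 50 after the start. The letters GCGCATGC, the core of the motif of NRF1, a regulator of many nuclear OXPHOS genes, were found on either strand in 13 of the 56 windows (23.2%) and in 3.27% of 27305 windows of all genes. CCGGAAG, the core of the ETS and GABPA motif, was found in 17 of 56 (30.4%) and in 10.7% of all windows, and CACGTG, the E-box, in 6 of 56 (10.7%) and in 7.43%. The 120 bases before the start are shown for 8 genes on which the comparisons below turn, with either core in capitals on whichever strand it was found. COX5B (chr2:97645942-97646061, plus strand), COX8A (chr11:63974500-63974619, plus strand) and NDUFB7 (chr19:14572067-14572186, minus strand) hold the ETS core, and NDUFS7 (chr19:1383787-1383906, plus strand) and ATP5F1C (chr10:7788057-7788176, plus strand) the NRF1 core, which in ATP5F1C occurs on both strands with an overlap. NDUFV3 (chr21:42893189-42893308, plus strand), ATP5PO (chr21:33915805-33915924, minus strand) and NDUFS1 (chr2:206159445-206159564, minus strand) hold neither core in these bases. Elsewhere in the full window, by which genes are sorted below, NDUFS1 holds the ETS core and COX5B the NRF1 core.
COX5B: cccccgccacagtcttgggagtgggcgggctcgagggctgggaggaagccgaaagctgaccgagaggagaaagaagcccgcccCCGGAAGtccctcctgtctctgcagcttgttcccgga
COX8A: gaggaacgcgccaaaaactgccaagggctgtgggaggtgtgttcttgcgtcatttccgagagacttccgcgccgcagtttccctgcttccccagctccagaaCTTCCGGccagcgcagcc
NDUFB7: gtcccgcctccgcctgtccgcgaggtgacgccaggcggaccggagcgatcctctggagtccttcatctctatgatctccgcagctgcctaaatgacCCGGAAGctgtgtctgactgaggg
NDUFS7: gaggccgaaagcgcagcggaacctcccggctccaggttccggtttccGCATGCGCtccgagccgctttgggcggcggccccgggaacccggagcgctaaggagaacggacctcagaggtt
ATP5F1C: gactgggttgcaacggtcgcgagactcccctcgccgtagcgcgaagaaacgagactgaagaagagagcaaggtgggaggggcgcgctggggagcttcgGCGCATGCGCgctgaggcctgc
NDUFV3: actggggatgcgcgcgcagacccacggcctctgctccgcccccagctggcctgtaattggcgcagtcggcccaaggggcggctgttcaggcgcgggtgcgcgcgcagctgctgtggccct
ATP5PO: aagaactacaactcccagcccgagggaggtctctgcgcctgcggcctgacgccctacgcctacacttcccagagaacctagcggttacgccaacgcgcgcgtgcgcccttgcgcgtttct
NDUFS1: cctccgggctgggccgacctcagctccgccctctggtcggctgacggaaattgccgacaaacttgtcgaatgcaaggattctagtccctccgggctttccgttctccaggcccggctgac
The median log2 fold change of oxpl-R against HCT116 in untreated cells was 0.47 over the 13 genes whose window holds the NRF1 core and 0.30 over the other 43. With oxaliplatin the order was the other way, 0.07 against 0.27 in HCT116 and -0.23 against -0.07 in oxpl-R. For the ETS core the medians were 0.33 with it and 0.34 without it between the untreated lines, 0.23 and 0.27 with oxaliplatin in HCT116, and 0.05 and -0.13 with it in oxpl-R.

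Totals of the libraries ran from 24838095 to 37927720 estimated counts. Of 11 markers of colon epithelium, 9 were at a level of 1 or more in every library on the CPM scale (counts scaled to a common library size, adjusted by TMM factors), while CDX1 and LGALS4 stayed below 1 CPM, and summed markers of leukocytes and endothelium did not exceed 2.87 and 0.912 CPM. Summed fibroblast markers ran from 14.5 to 54.4 CPM, of which COL1A1 made up 13 to 40.3 CPM, COL1A2 from 0 to 13 CPM, and DCN and LUM at most 0.0955 CPM each, and their part in the results was not tested. As a check of the treatments, 12 of 14 p53 targets were higher after oxaliplatin in HCT116 and 14 of 14 in oxpl-R. Of all genes, 8.74% and 3.1% were called higher there (adjusted p below 0.05). None of 26 E2F targets was called after doxycycline alone in either line, where 0.422% and 0.226% of all genes were called higher. With so few genes called, the E2F targets cannot tell whether E1A was switched on. The level of E1A itself was not analysed here.

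A set of 3 libraries stood apart in ways that touch the OXPHOS genes. In replicate 1 of oxpl-R with oxaliplatin, all 13 mitochondrial genes were lower than the mean of replicates 2 and 3, by 2.13-fold (MT-ND6) to 72.0-fold (MT-ATP6) with a median of 22.9-fold. MT-CO1, the catalytic subunit of complex IV, was at 3901 CPM in that library and at 32931 and 37849 CPM in the other two, and MT-ND2, a core subunit of complex I, at 196 against 11929 and 16143 CPM. Its mitochondrial ribosomal RNAs were also lower, MT-RNR1 by 4.18-fold and MT-RNR2 by 5.52-fold, while the ratio of the nuclear OXPHOS genes to the same replicates had a median of 0.942. The library differed beyond these genes. Over 5686 genes with a level at least that of the lowest OXPHOS gene, its log2 difference had a Spearman's rho of 0.73 with transcript GC content.

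In replicate 3 of HCT116 with oxaliplatin, 65 of the 69 nuclear genes were below the mean of the other two replicates, with a median log2 difference of -1.02, from -2.14 for NDUFB6 to 0.64 for NDUFS1. In replicate 1 of HCT116 with both agents 59 were below, with a median of -0.61, from -2.36 for ATP5F1C to 0.41 for SDHA. Over 5691 and 5690 genes at such levels, the medians of the same difference were -0.05 and 0.07. Over those genes, the rho with transcript length was 0.64 and 0.32, and with GC content -0.14 and 0.61. The part of these trends in the low OXPHOS values was not tested. These 2 libraries, from different groups, correlated best with each other (r = 0.993 over genes, which are not independent), and their summed ribosomal protein genes, at 55545 and 63389 CPM, were below the 77249 to 140571 CPM of the others. Where these libraries enter a comparison, counts and medians over the OXPHOS genes are given with and without the 3 of them. Leaving out these 2 HCT116 libraries raises the means of most nuclear OXPHOS genes in their groups, since they were described by low values of the same genes.

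**Figure D1:**
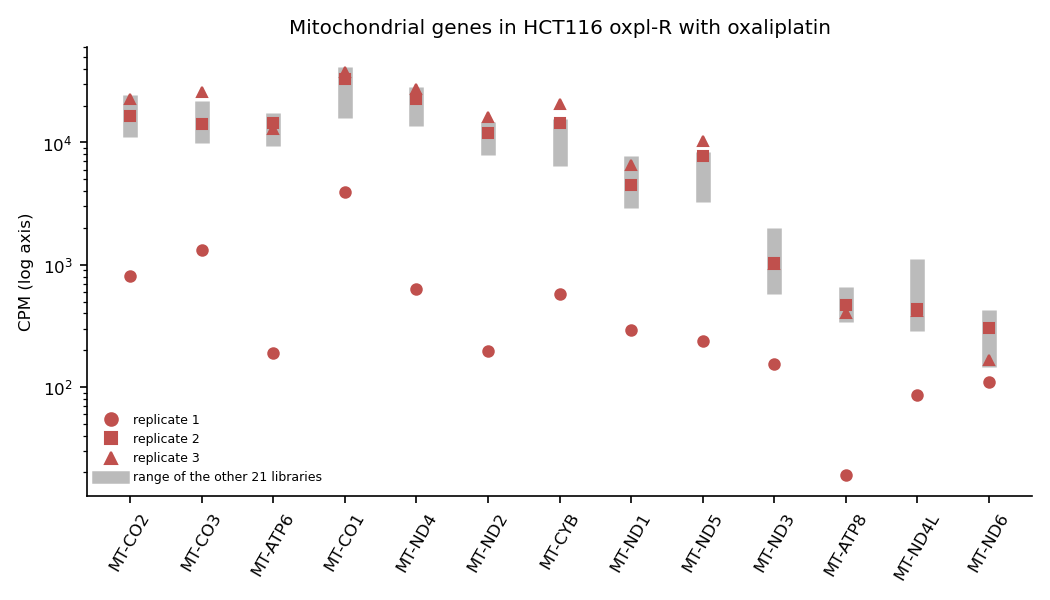
The 13 mitochondrial genes in the 3 libraries of oxpl-R with oxaliplatin (CPM on a log axis, 1 marker per replicate), with the range over the other 21 libraries as grey bars. Replicate 1 sits below replicates 2 and 3 for every gene, from 190.0 against 14467 and 12900.1 CPM for MT-ATP6 to 110.3 against 302 and 167 CPM for MT-ND6.

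The summed mitochondrial transcripts outweighed the summed nuclear ones in 23 of 24 libraries. Outside the library of low mitochondrial counts, the 13 mitochondrial genes took 9.39% to 17.9% of all counts and the 69 nuclear genes 1.09% to 2.09%, and the ratio of the sums ran from 5.62 to 16.4 with a median of 7.74. In the low library the mitochondrial share was 0.916% and the ratio 0.539. Per kilobase of transcript, the levels of the mitochondrial genes ran from 517.5 (MT-ND6) to 23917 (MT-CO2) CPM with a median of 9898, and those of the nuclear genes from 6.27 (NDUFS1) to 1135 (COX6A1) CPM with a median of 175.0. The medians differed 56.6-fold, and 8 nuclear genes lay above MT-ND6. Among nuclear genes the median level per kilobase was 512 CPM for complex IV and 561 CPM for CYC1, against 138 for complex I, 139 for complex II and 232 for complex V.

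Summed levels with and without oxaliplatin were set side by side for both genomes. In HCT116 the mitochondrial sum was 118478, 98578 and 134127 CPM in untreated cells and 171257, 157431 and 175209 CPM with oxaliplatin. In oxpl-R it was 132386, 100820.4 and 124782 CPM in untreated cells and 8530.3, 141223 and 181736 CPM with oxaliplatin. The groups do not overlap in HCT116, and in oxpl-R replicates 2 and 3 with the drug lie above all untreated samples while replicate 1 lies far below them.

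The nuclear sum in HCT116 was 14187, 13183 and 14373 CPM untreated and 19542, 18457 and 10698 CPM with oxaliplatin. Replicates 1 and 2 with the drug thus lie above the untreated samples and replicate 3 below them. In oxpl-R it was 14972, 17742 and 16119 CPM untreated and 15819, 16498 and 15827 CPM with oxaliplatin, within the untreated range. The untreated oxpl-R samples all exceeded the untreated HCT116 samples in this sum, with means of 16278 ± 1392 and 13914 ± 641 CPM (SD, n = 3).

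With doxycycline alone the mitochondrial sums were 105189 ± 14885 CPM in HCT116 and 103678 CPM on average in oxpl-R, below the untreated means of 117061 ± 17817 and 119329 CPM but with overlapping replicates. With both agents they were 139138 ± 11291 CPM in HCT116 and 120160 CPM in oxpl-R. In log2 terms the ratio of mitochondrial to nuclear sums was higher by 0.36 with oxaliplatin in HCT116, and by 0.05 without replicate 3. In oxpl-R it was lower with oxaliplatin (difference -0.96), and higher by 0.44 without the low library. These sums are a description and carry no test.

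**Figure D2:**
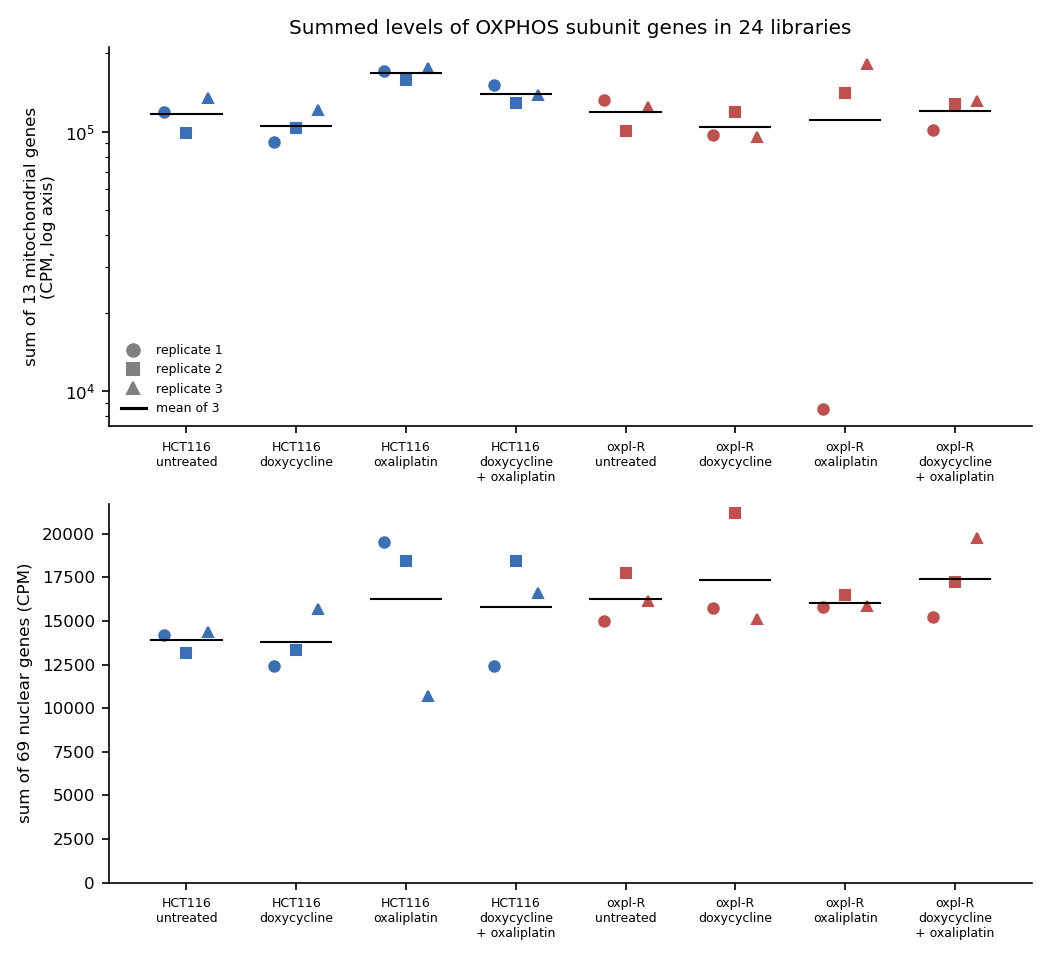
Summed CPM of the 13 mitochondrial genes (log axis) and of the 69 nuclear genes in the 8 groups, with 1 marker per replicate and a line at the mean of 3. The mitochondrial sums of 23 libraries lie between 91286 and 181736 CPM and that of 1 library of oxpl-R with oxaliplatin at 8530.3 CPM, whereas the nuclear sums span 10698 to 21199 CPM.

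Without treatment a few nuclear OXPHOS genes, and no mitochondrial gene, passed the test between the lines. Of the 69 nuclear genes, 7 were called higher and 2 lower (adjusted p below 0.05), where 7.19% of all genes tested were called higher and 6.93% lower, so the share of members called higher was near that of all genes. The log2 fold change was positive for 55 of the 69, with a median of 0.31, against a median of 0.00 over all genes tested and -0.05 over the 9991 genes averaging at least 1 CPM. In 36 nuclear genes every oxpl-R sample lay above every HCT116 sample and in 7 below, and such separation occurred in 17.5% of all genes in each direction. None of the 13 mitochondrial genes was called, also at an unadjusted p below 0.05, and their median log2 fold change was 0.06. Counts of nuclear genes called rose to 25 higher and 3 lower without the 3 libraries that stand apart, which enter this comparison only through the shared estimate of spread, and 9 of those 28 were the original 9 (background without them 11.6% and 8.95%). Without replicate 2 of untreated HCT116, 3 nuclear genes were higher and 1 lower (background 4.88% and 5.03%), without its replicate 3 they were 3 and 2 (4.96% and 4.55%), and without replicate 2 of untreated oxpl-R 3 and 0 (5.65% and 4.73%).

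Complex I held 8 of the 9 calls in untreated cells. NDUFB5, an accessory subunit of its membrane arm (chr3:179604690-179627647), was at 65.2, 67.1 and 56.9 CPM in HCT116 and at 117, 161 and 123 CPM in oxpl-R. Every oxpl-R sample was above every HCT116 sample, and the log2 fold change was 1.08 (SE 0.30, adjusted p = 0.0124). NDUFB7, an accessory subunit facing the intermembrane space, was at 107, 93.1 and 121 CPM against 185, 231 and 190.4 CPM, again without overlap (0.92, SE 0.18, adjusted p = 0.000588). NDUFA2, an accessory subunit of the matrix arm, was at 69.1, 60.5 and 67.7 CPM against 110.5, 125 and 112 CPM (0.82, SE 0.23, adjusted p = 0.0157). Smaller differences were found for NDUFS6 (0.57, SE 0.18, adjusted p = 0.034), NDUFA11 (0.64, SE 0.18, adjusted p = 0.0153) and NDUFV3 (0.63, SE 0.14, adjusted p = 0.00229). In all 3 the groups did not overlap.

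The 2 genes that were lower in untreated oxpl-R also belong to complex I. NDUFS1, a core subunit that carries iron-sulphur clusters, was at 127, 131 and 91.9 CPM in HCT116 and at 64.2, 57.4 and 89.1 CPM in oxpl-R (-0.73, SE 0.24, adjusted p = 0.0358). NDUFA10, an accessory subunit, was at 155, 158 and 161 CPM against 103, 105 and 113 CPM (-0.56, SE 0.15, adjusted p = 0.0103). NDUFA10 replicates lay far apart between lines and close together within them, while the gap for NDUFS1 was only from 91.9 to 89.1 CPM. The 4 genes of complex II were not called. SDHB, its iron-sulphur subunit, came closest with a log2 fold change of 0.79 (adjusted p = 0.0654), and SDHA, SDHC and SDHD had values of 0.10, 0.31 and -0.07. CYC1, the cytochrome c1 of complex III, had a value of -0.34 and none of the 10 complex IV genes was called (median 0.32). In complex V ATP5PO, the subunit that joins the stalk to the catalytic head (chr21:33903453-33915814), was at 184, 171 and 170.0 CPM in HCT116 and at 291, 479.9 and 278 CPM in oxpl-R (1.00, SE 0.32, adjusted p = 0.0344). The mitochondrial acyl carrier protein NDUFAB1 had a value of 0.20 (adjusted p = 0.746).

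**Figure D3:**
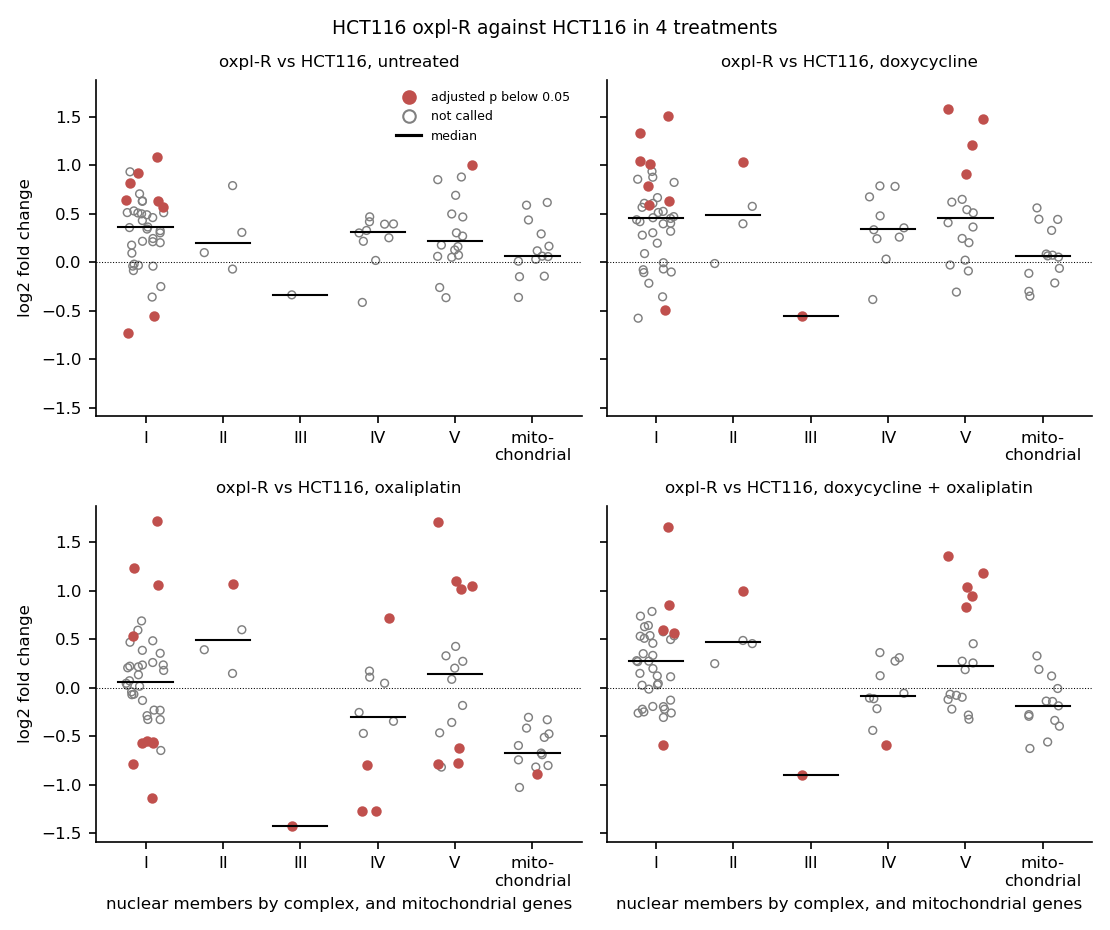
Log2 fold change of oxpl-R against HCT116 for each nuclear gene by complex and for the mitochondrial genes, in 4 panels by treatment, with called genes in red, others as open grey points and medians as black lines. Untreated, 7 nuclear genes are called higher and 2 lower, with oxaliplatin 10 higher and 13 lower, and the mitochondrial median moves from 0.06 to -0.67.

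The same line comparison under the 3 treatments uses other samples and can be set beside it. Under doxycycline 12 nuclear genes were higher and 2 lower in oxpl-R (background 6.69% and 7.75%), under oxaliplatin 10 and 13 (13.7% and 12%) and under both agents 10 and 3 (10.3% and 8.92%). Their medians were 0.44, 0.07 and 0.25. Replicates did not overlap for 22 higher and 6 lower nuclear genes under doxycycline (13.8% and 15.8% of all genes), 10 and 9 under oxaliplatin (16% and 14.2%) and 15 and 5 under both (16.6% and 14.7%). Without the 3 libraries that stand apart, the nuclear calls were 38 higher and 2 lower under doxycycline (12.5% and 8.87%), 8 and 21 under oxaliplatin (15.1% and 15%) and 9 and 4 under both (9.7% and 8.77%), and these included 14 of the 14, 20 of the 23 and 12 of the 13. The medians were then 0.53, -0.28 and 0.06. The calls lost included ATP5PD (0.52, adjusted p = 0.0813) and COX4I1 under oxaliplatin and NDUFV2 (0.45, adjusted p = 0.0569) under both. Without replicate 1 of HCT116 with both agents alone, 2 nuclear genes were higher and 1 lower under both (background 7.28% and 6.45%). Over the 4 treatments 34 nuclear genes were called at least once, 19 higher and 15 lower, none in both directions, and 35 never. NDUFB5, NDUFV3 and ATP5PO were called higher in all 4. ATP5F1C, ATP5PD and SDHB were called higher in 3, and CYC1 was called lower in 3. The sign of the fold change was positive in all 4 for 32 genes and negative in all 4 for 8. The 4 comparisons contrast the same lines, and the matching shares over all genes are not given here. Whether such recurrence is particular to OXPHOS genes therefore cannot be told.

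NDUFV3, an accessory subunit of the NADH-binding module (chr21:42879644-42913304), varied little between replicates. In HCT116 it was at 53.6, 57.3 and 51.3 CPM with doxycycline, 63.7, 67.8 and 55.6 with oxaliplatin, and 59.6, 58.0 and 57.7 with both. In oxpl-R it was at 82.2, 87.0 and 81.3 CPM, 125, 123 and 143, and 101, 109 and 108 in the same order. The highest HCT116 value over all treatments was thus 67.8 CPM and the lowest oxpl-R value 81.3 CPM. The log2 fold changes were 0.63, 1.06 and 0.86 (SE 0.14 in each; adjusted p = 0.00257, 9.99e-07 and 4.7e-05).

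NDUFB5 was at 48.4, 46.8 and 59.1 CPM in HCT116 with doxycycline, 58.7, 69.7 and 26.2 with oxaliplatin and 22.0, 54.6 and 69.9 with both. In oxpl-R it was at 126, 187 and 125 CPM, 114, 189 and 206, and 158, 150.2 and 152. The low values of 26.2 and 22.0 CPM are those of the 2 HCT116 libraries that stand apart, and the lines do not overlap with or without them. Fold changes on the log2 scale were 1.51, 1.72 and 1.65 (SE 0.30 to 0.31; adjusted p = 0.00074, 5.78e-05 and 0.000168).

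Of complex V, ATP5F1C, the gamma subunit of the rotating stalk, was called higher in the 3 treated comparisons. In HCT116 it was at 102, 89.5 and 141 CPM with doxycycline, 82.9, 116 and 53.6 with oxaliplatin and 28.1, 131 and 156 with both. In oxpl-R it was at 249, 516 and 225 CPM, 167, 352 and 308, and 264, 299 and 247. The lines did not overlap under any treatment although oxpl-R replicates differed among themselves, with log2 fold changes of 1.58 (SE 0.39, adjusted p = 0.00492), 1.71 (SE 0.39, adjusted p = 0.00106) and 1.36 (SE 0.38, adjusted p = 0.0106). ATP5PO had fold changes of 1.48, 1.05 and 1.18 (adjusted p = 0.00188, 0.0151 and 0.00854). In complex II, SDHB was at 169, 164 and 146 CPM in untreated HCT116 and 248, 328 and 252 CPM in untreated oxpl-R, and its fold changes under the 3 treatments were 1.03, 1.07 and 0.99 (SE 0.29 in each; adjusted p = 0.0137, 0.00516 and 0.0129). SDHA, SDHC and SDHD were called under no treatment.

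CYC1 of complex III and 3 genes of complex IV were lower in oxpl-R under oxaliplatin, and COX4I1, a nuclear subunit of complex IV, was higher (0.72, adjusted p = 0.0379), but not without the 3 libraries that stand apart (0.15, adjusted p = 0.747). CYC1 was at 1229.5, 1030.3 and 889 CPM in HCT116 and at 399, 438 and 333 CPM in oxpl-R with the drug, far apart in every replicate (-1.43, SE 0.18, adjusted p = 4.48e-07). COX5B, a nuclear subunit on the matrix side of complex IV (chr2:97646062-97648383), was at 412, 343 and 234 CPM against 124, 174 and 113 CPM (-1.27, SE 0.21, adjusted p = 2.75e-05). COX5A, its neighbour in the complex (chr15:74919791-74938083), was at 250.3, 242 and 183 CPM against 62.6, 128 and 90.0 CPM (-1.27, SE 0.19, adjusted p = 5.86e-06). None of these 3 genes overlapped between lines. COX8A, a small membrane subunit of complex IV, was also lower, and so was NDUFB10 of complex I (-1.14, SE 0.21, adjusted p = 0.000115). Under both agents CYC1 (-0.89), COX5B (-0.59) and NDUFB10 (-0.59) were the 3 genes called lower (adjusted p = 0.000533, 0.0461 and 0.0477), and under doxycycline alone CYC1 (-0.56, adjusted p = 0.0359) and NDUFA10 (-0.50, adjusted p = 0.0235), neither of which was called there with RLE scaling or in the second table. Among genes higher in oxpl-R with oxaliplatin was NDUFA9, an accessory subunit of complex I, at 44.8, 54.2 and 36.5 CPM in HCT116 and 116, 72.4 and 131 CPM in oxpl-R (1.24, SE 0.30, adjusted p = 0.00208).

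The 13 mitochondrial genes were all lower in oxpl-R than in HCT116 under oxaliplatin in the average of 3 replicates, with a median log2 fold change of -0.67, from -1.03 (MT-ND1) to -0.30 (MT-CYB). Only MT-ND6 was called, at 349, 428 and 297 CPM in HCT116 and 110.3, 302 and 167 CPM in oxpl-R, where replicate 2 of oxpl-R lies within the HCT116 range (-0.89, SE 0.32, adjusted p = 0.0385). The library of low mitochondrial counts is 1 of the 3 oxpl-R samples. The median was -0.16 without the 3 libraries that stand apart, with MT-ND6 at -0.79 (adjusted p = 0.0932) and no mitochondrial gene called. Under doxycycline and under both agents the medians were 0.07 and -0.19 with no call (0.16 with 2 calls and -0.18 with none without the 3).

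Base composition moved with these differences, and its part in them was not tested beyond the correction given here. Over 5691 genes with a level at least that of the lowest OXPHOS gene, Spearman's rho between transcript GC content and the log2 fold change of the lines was -0.04 untreated, -0.25 with doxycycline, -0.44 with oxaliplatin and -0.42 with both. Over the 69 nuclear genes under oxaliplatin it was -0.36, and 0.57 with the span of the gene. With transcript length, rho over the 5691 genes was -0.30 untreated, -0.29 with doxycycline, 0.05 with oxaliplatin and -0.04 with both. Over the 69 nuclear genes in untreated cells it was -0.28. No correction for transcript length was made, and the part of length in these differences was not tested. After a correction for GC content, the nuclear genes called were 11 higher and 2 lower untreated, 18 and 2 with doxycycline, 10 and 11 with oxaliplatin, and 11 and 5 with both (background 9.95% and 8.48%, 9.49% and 8.15%, 12.7% and 13.1%, 10.5% and 9.83%). These included 9 of the 9, 13 of the 14, 13 of the 23 and 9 of the 13 genes called without it. NDUFB5 and NDUFV3 were among them under every treatment, and CYC1, COX5A and COX5B with oxaliplatin.

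The chromosomes of the nuclear genes were compared as well. In untreated cells the median of the members lay above that of all genes at 1 CPM or more on 20 of the 22 chromosomes that hold them, with the same sign on 13 and the opposite sign on 9. The 3 OXPHOS genes on chromosome 21, NDUFV3, ATP5PO and ATP5PF, had a median log2 fold change of 0.69, where the 94 genes at 1 CPM or more on that chromosome had a median of 0.28. NDUFB4 and NDUFB5 on chromosome 3 had a median of 0.81 against 0.37 over 575 genes. The 5 genes on chromosome 2, which include NDUFS1, NDUFA10 and COX5B, had a median of -0.26 against -0.31 over 679 genes. On chromosome 19 the 8 genes, NDUFB7 among them, had a median of 0.48 against 0.09 over 634. Under doxycycline the median of the members lay above that of all genes on 21 of the 22 chromosomes, under oxaliplatin on 9 and under both agents on 14. The part of gene copy number in these differences was not tested.

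In HCT116 nuclear OXPHOS genes were called in both directions after oxaliplatin, with a share called lower near that of all genes. Of the 69, 13 were higher and 6 lower than in untreated cells, where 8.74% and 8.61% of all genes were called. Complex I held 9 of the higher and 3 of the lower genes, complex III the higher CYC1, complex IV 3 higher genes and no lower one, and complex V 3 lower genes. All 10 complex IV genes had a positive fold change (median 0.46), and the median over the 69 was 0.27 against -0.11 over genes averaging at least 1 CPM. Groups did not overlap for 11 higher and 8 lower genes, where 15.2% and 17.8% of all genes separated. Without replicate 3 with the drug, 28 were higher and 3 lower (background 11.3% in each direction), and without untreated replicate 2, 4 were higher and 2 lower (5.2% and 4.58%).

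NDUFS8 and NDUFS7, core subunits of complex I that carry iron-sulphur clusters, were among the genes that rose. NDUFS8 (chr11:68030617-68036644) was at 90.1, 85.6 and 87.0 CPM untreated and 215, 193 and 153 CPM with oxaliplatin (1.09, SE 0.19, adjusted p = 0.000138), and NDUFS7 rose by 0.70 (SE 0.18, adjusted p = 0.00726). NDUFB11, an accessory subunit of the membrane arm, went from 110.1, 102 and 129 CPM to 276, 254 and 172 CPM (1.04, SE 0.20, adjusted p = 0.000437). NDUFB7 went from 107, 93.1 and 121 CPM to 233, 184 and 158 CPM (0.84, SE 0.18, adjusted p = 0.0018). Replicate 3 with the drug, a library that stands apart, was the lowest treated value in NDUFS8, NDUFB11 and NDUFB7 and still lay above every untreated sample.

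In complexes III and IV, COX5B went from 163, 149 and 193 CPM to 412, 343 and 234 CPM (0.97, SE 0.21, adjusted p = 0.00181) and COX8A from 299, 274 and 352 CPM to 650.3, 552 and 393 CPM (0.79, SE 0.21, adjusted p = 0.00842). CYC1 went from 661, 621 and 768.5 CPM to 1229.5, 1030.3 and 889 CPM (0.62, SE 0.18, adjusted p = 0.0164). No treated sample overlapped an untreated one in these genes. The other genes that rose were COX6A1, NDUFB9, NDUFB2, NDUFB8, NDUFA13 and NDUFA11, with values from 0.64 to 0.79.

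Of the genes that fell, 3 belong to complex V, the ATP synthase, and 3 to complex I. Over the 16 complex V genes the fold change was positive for 9, with a median of 0.04. ATP5F1A, the alpha subunit of the catalytic head, was at 934, 936 and 834 CPM untreated and 427, 481 and 542 CPM with oxaliplatin (-0.90, SE 0.18, adjusted p = 0.000614). ATP5F1C fell from 203, 187 and 149 CPM to 82.9, 116 and 53.6 CPM (-1.09, SE 0.38, adjusted p = 0.0461), and ATP5PB, a subunit of the peripheral stalk, from 330.0, 310.0 and 270.2 CPM to 159.6, 188 and 136 CPM (-0.91, SE 0.29, adjusted p = 0.0258). NDUFA9 (-0.95), NDUFS1 (-0.89) and NDUFA10 (-0.56) of complex I fell too (adjusted p = 0.0257, 0.00896 and 0.00971). In these 6 genes the groups did not overlap. All 4 genes of complex II stayed below the threshold, with values from -0.37 (SDHD) to 0.18 (SDHC), and NDUFAB1 had a value of 0.27.

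GC content moved strongly with the response of HCT116 to oxaliplatin, and nearly as strongly with its other treatments. Spearman's coefficient was 0.70 over 5691 genes and 0.43 over the 69 nuclear genes, and over the latter it was -0.43 with transcript length. Over the 5691 genes the coefficient with GC content was 0.62 for doxycycline alone in HCT116 and 0.67 for both agents. These comparisons share their untreated samples. In oxpl-R it was 0.22 for oxaliplatin, 0.12 for doxycycline and 0.34 for both. After GC correction 10 nuclear genes were called higher and 2 lower (background 6.3% and 3.96%), and 4 of the 19 were among them, namely NDUFS8 (0.61), NDUFB11 (0.67), COX5B (0.95) and ATP5F1A (-0.51). Without correction ATP5PB and ATP5F1C were at -0.91 and -1.09, and with it at -0.17 and -0.47 with no call. Without the 3 libraries that stand apart, all 19 remained among 38 higher and 6 lower genes (background 15.5% and 13.1%), with NDUFS8 and NDUFB11 at 1.32 each and a median of 0.66 over the 69. Replicate 3 of HCT116 with oxaliplatin, a library left out here, was described above by its low nuclear OXPHOS values. Leaving it out therefore raises the treated means of most of these genes, so the higher counts are not independent of that choice.

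All 13 mitochondrial genes had a positive fold change with oxaliplatin in HCT116, with a median of 0.46, but none was called and none had an unadjusted p below 0.05. MT-CO1 was at 23539, 20997 and 25394 CPM untreated and 38538, 33128 and 41118 CPM with oxaliplatin (0.69, SE 0.40, adjusted p = 0.266, the lowest of the 13). MT-ND5, a core subunit of complex I, was at 3991, 3605 and 4828 CPM against 7243, 7267 and 8431 CPM (0.88, SE 0.52), and MT-CYB at 8359.6, 7522 and 10032 CPM against 15169, 13752 and 14829.9 CPM (0.76, SE 0.51). In 8 of the 13, which also include MT-ND1 (0.80), MT-ND2 (0.45), MT-ND4 (0.46), MT-CO3 (0.41) and MT-ATP6 (0.47), no treated sample overlapped an untreated one, where 15.2% of all genes separated this way. The others were MT-ND6 (0.52), MT-ND3 (0.33), MT-CO2 (0.23), MT-ATP8 (0.16) and MT-ND4L (0.09).

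The spread that these tests use comes from all 24 samples and so includes the library of low mitochondrial counts, which is in another group. With that library left out 4 of the 13 genes were called higher in HCT116 (background 9.58% higher and 9.36% lower), and with the 3 libraries left out 7, among them MT-CO1 (0.72, adjusted p = 0.00374), MT-ND5 (0.91, adjusted p = 0.000643) and MT-CYB (0.85, adjusted p = 0.00194). The median was then 0.58. With GC correction as well as without the 3 libraries, 12 were called and the median was 0.97 (background 10.7% higher and 8.27% lower). The curve of that correction was fitted without mitochondrial genes and then applied to them, and whether it holds for them was not tested. The mitochondrial ribosomal RNAs MT-RNR1 and MT-RNR2, transcribed from the same genome, had a median value of 0.40 and were not called.

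**Figure D4:**
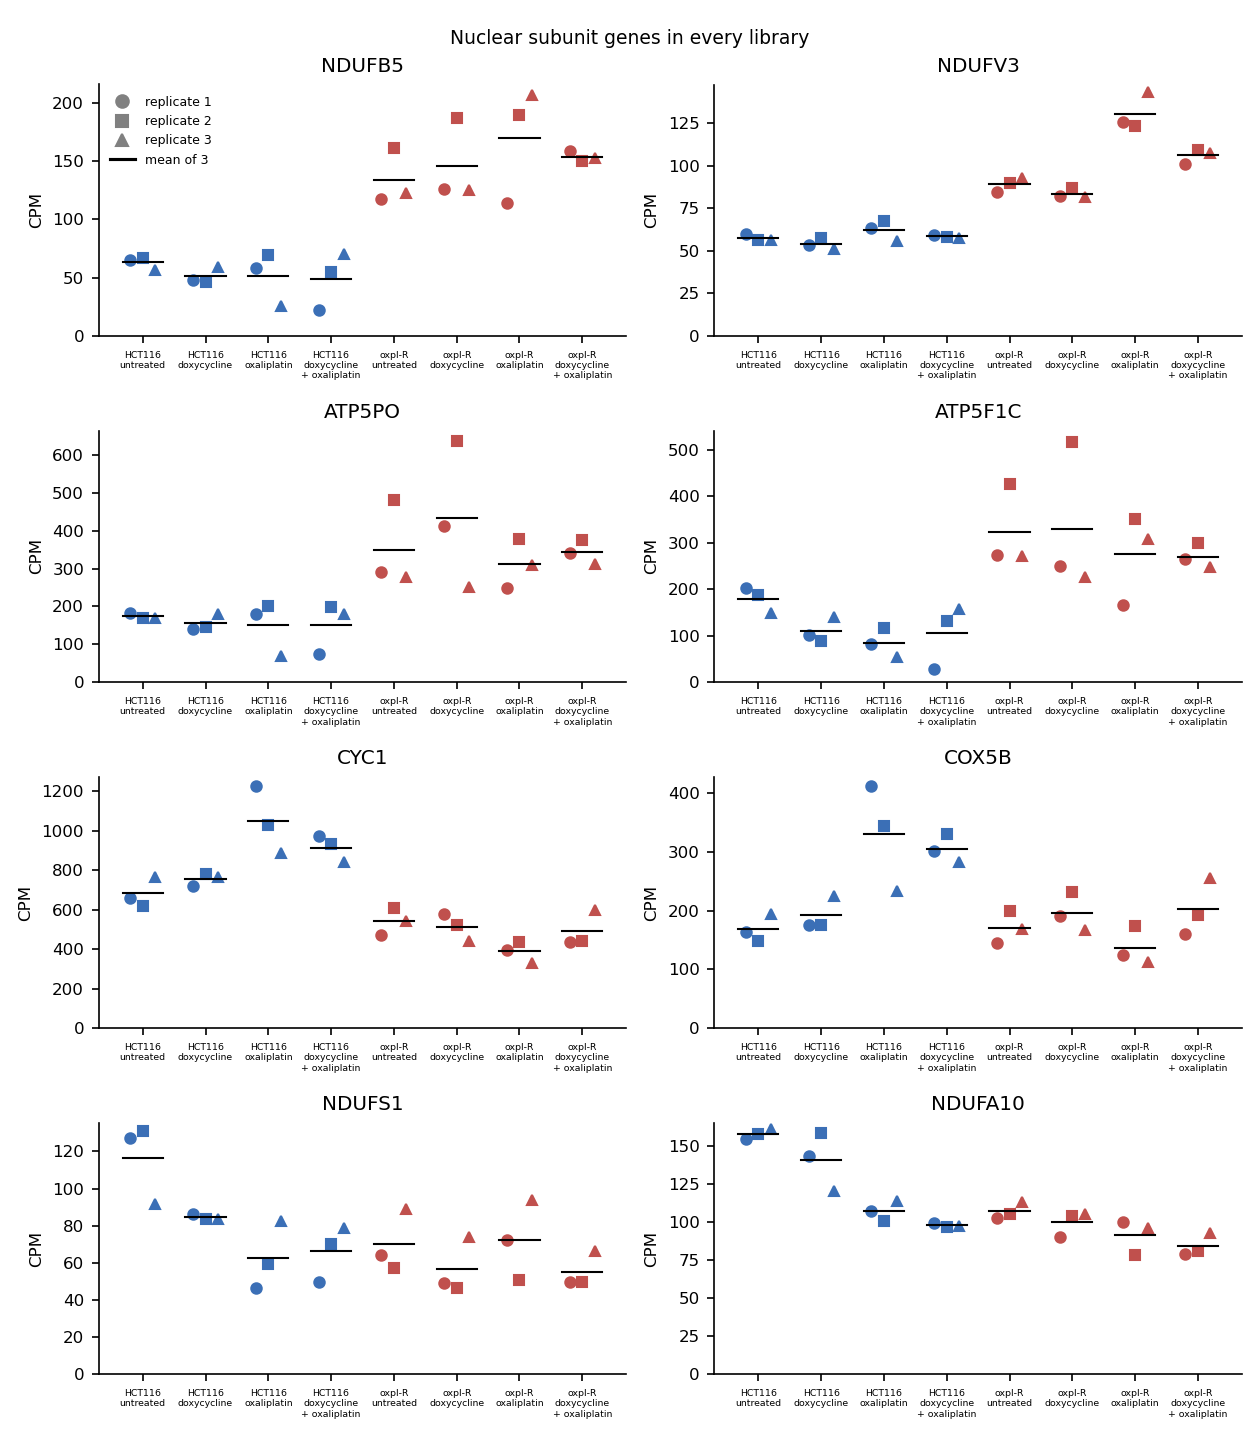
CPM of NDUFB5, NDUFV3, ATP5PO, ATP5F1C, CYC1, COX5B, NDUFS1 and NDUFA10 in every library, with 1 marker per replicate and a line at the mean of 3, for the 8 groups. NDUFV3 lies at 51.3 to 67.8 CPM in HCT116 and at 81.3 to 143 CPM in oxpl-R, and COX5B is at 234 to 412 CPM in HCT116 with oxaliplatin against 113 to 174 CPM in oxpl-R with it.

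In oxpl-R few OXPHOS genes passed the test after oxaliplatin. Of the nuclear genes 1 was called higher and 1 lower, against a background of 3.1% and 3.01%, and their median was -0.09. NDUFV3 rose from 84.8, 90.0 and 92.6 CPM to 125, 123 and 143 CPM (0.55, SE 0.14, adjusted p = 0.0148). COX5A fell from 151, 146 and 139 CPM to 62.6, 128 and 90.0 CPM (-0.64, SE 0.19, adjusted p = 0.0379), and its lowest value was in the library of low mitochondrial counts. When the 3 libraries were left out, 3 nuclear genes were higher and 1 lower (background 3.44% and 4.24%), with a median of 0.00, of which NDUFV3 was the one gene shared with the 2 above, and COX5A was at -0.42 (adjusted p = 0.0839). Neither was called when the groups were compared alone (background 2.02% and 2.1%).

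Mitochondrial genes in oxpl-R had a median log2 fold change with oxaliplatin of -0.20, from -0.88 (MT-ND4L) to 0.08 (MT-CO1), and none was called. MT-CYB was at 12692, 9465 and 12899 CPM untreated and 579, 14304 and 20552 CPM with the drug, so that its 2 other treated replicates exceeded all untreated ones. The median was 0.38 without the 3 libraries that stand apart.

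The difference between the lines in the response to oxaliplatin was tested as an interaction, and 5 nuclear genes were called, all with a smaller or opposite response in oxpl-R (background 1.91% in this direction and 0.864% in the other). COX5B had the largest difference, -1.29 (SE 0.30, adjusted p = 0.0136). It was at 144, 199 and 169 CPM in untreated oxpl-R and 124, 174 and 113 CPM with oxaliplatin, overlapping, where the HCT116 values given above did not overlap. COX8A, at 373, 399 and 389 CPM untreated and 371, 293 and 254 CPM with the drug in oxpl-R, had a difference of -1.13 (SE 0.29, adjusted p = 0.0319). Its gap in oxpl-R was only from 373 to 371 CPM. CYC1, at 470.3, 608 and 546 CPM against 399, 438 and 333 CPM, had -1.09 (SE 0.26, adjusted p = 0.0151).

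The other 2 genes were NDUFS7 (-1.04, SE 0.26, adjusted p = 0.0205) and NDUFB11 (-1.0, SE 0.28, adjusted p = 0.0417), whose oxpl-R values were 143, 171 and 147 CPM untreated and 199, 162 and 112 CPM with oxaliplatin. The 69 nuclear differences had a median of -0.35, and 20 had an unadjusted p below 0.05. The 13 mitochondrial differences were all negative with a median of -0.85 and none was called. Without the library of low mitochondrial counts that median was -0.27, and without the 3 libraries -0.33 with no call. GC content had a rho of -0.56 with this difference over 5691 genes, and of -0.66 and -0.62 with those for doxycycline and for both agents. For oxaliplatin 5 genes were called after GC correction, all negative (background 2.56%, and 1.58% for positive differences), of which COX5B (-1.32), COX8A (-0.91), CYC1 (-0.75) and NDUFB11 (-0.76) were 4 of the original 5. Leaving out the 3 libraries, 24 nuclear genes were negative and 1 positive (background 8.84% and 6.05%), the original 5 among them and a nuclear median of -0.72. Without replicate 2 of untreated HCT116 none was called (background 0.892% negative and 0.351% positive), and without replicate 3 of HCT116 with oxaliplatin 17 were negative and 1 positive (3.91% and 2.87%).

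**Figure D5:**
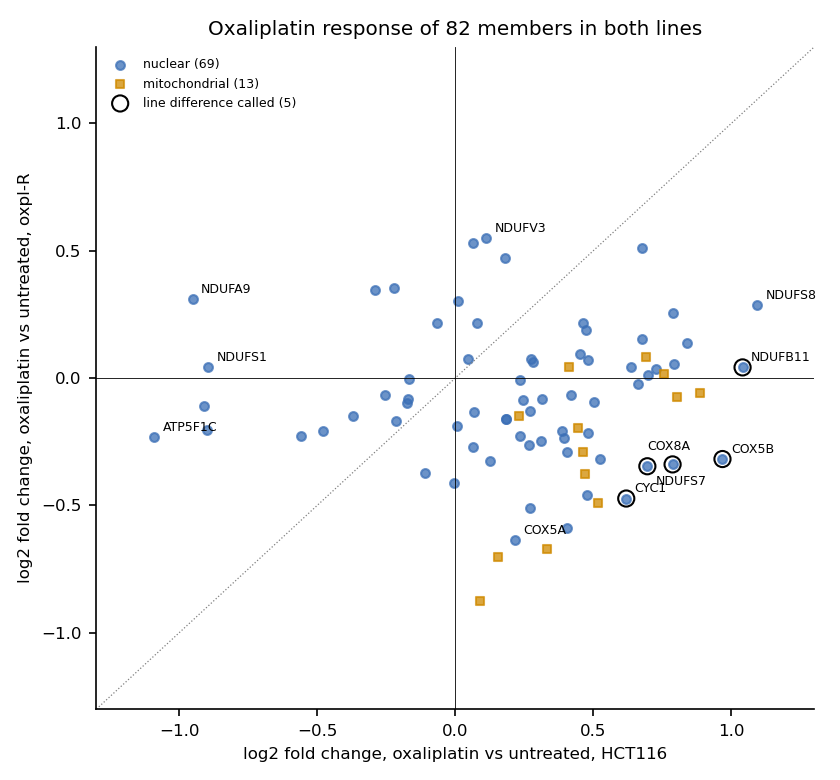
Log2 fold change with oxaliplatin in HCT116 (x axis) and in oxpl-R (y axis) for the 69 nuclear and 13 mitochondrial genes, with circles around the 5 genes whose difference between lines was called. COX5B lies at 0.97 on the x axis, and all 13 mitochondrial genes lie right of 0 with a median of 0.46 in HCT116, while their median of -0.20 in oxpl-R includes the library of low mitochondrial counts and is 0.38 without the 3 libraries that stand apart.

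No OXPHOS gene passed the test after doxycycline alone in either line. No nuclear or mitochondrial gene was called by edgeR, none had an unadjusted p below 0.05 and none was called by DESeq2. By edgeR 0.422% of all genes were called higher and 0.0103% lower in HCT116, and 0.226% higher and 0% lower in oxpl-R. The nuclear medians were 0.07 and 0.15 and the mitochondrial medians -0.10 and -0.13. The interaction of line and doxycycline called none as well (background 0.00514% in each direction). When the 6 HCT116 samples were compared alone, 4 nuclear genes were called lower (background 2.91% higher and 6.59% lower).

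With both agents HCT116 held 9 nuclear genes higher and 3 lower than untreated (background 7.77% and 7.01%). This comparison shares its untreated samples with the comparisons of oxaliplatin and of doxycycline alone. NDUFB11 was at 208, 237 and 200.5 CPM (0.92, SE 0.20, adjusted p = 0.00161), NDUFS8 at 171, 165 and 146 CPM (0.88, SE 0.19, adjusted p = 0.00158) and COX5B at 302, 331 and 283 CPM (0.86, SE 0.21, adjusted p = 0.00568), all above the untreated samples. ATP5F1A, at 474, 535 and 561 CPM (-0.78, adjusted p = 0.00244), NDUFA10 (-0.69, adjusted p = 0.00225) and NDUFS1 (-0.82, adjusted p = 0.0189) were lower. None of the 13 mitochondrial genes was called (median 0.31), and replicates of 5 of them did not overlap. Of the nuclear genes, 18 were higher and 8 lower without overlap (15.5% and 16.9% of all genes). When the 3 libraries were left out, 25 nuclear genes were higher and 2 lower (background 9.79% and 8.35%), 11 of the 12 among them, with medians of 0.41 for nuclear and 0.33 for mitochondrial genes. The call lost was NDUFS1 (-0.62, adjusted p = 0.0705). After GC correction the nuclear genes called were 8 higher and 2 lower (background 5.63% and 4.25%), 5 of them among the 12.

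In oxpl-R neither genome had a gene called with both agents (background 2.55% and 1.23%), although 4 nuclear genes had an unadjusted p below 0.05 and DESeq2 called 2 lower. The median was 0.15 for nuclear and 0.01 for mitochondrial genes. The line difference in the response to both agents was called for no member (background 0.0874% in each direction), with a nuclear median of -0.09 and a mitochondrial median of -0.25 (-0.34 and -0.29 without the 3 libraries).

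Genes that express or assemble the complexes were described beside the subunits, as lists with no test of their own, to be read against the shares of all genes called that are given above for each comparison. Between the untreated lines these shares were 7.19% higher and 6.93% lower, and with oxaliplatin in HCT116 8.74% and 8.61%. Of 27 measured genes for expression of mitochondrial DNA, 2 were higher and 2 lower in untreated oxpl-R (7.41% each), and MTIF3, a mitochondrial initiation factor, was higher in all 4 line comparisons (1.20, 1.40, 2.17 and 1.62), while ELAC2, which cuts mitochondrial transcripts at their tRNAs, was lower in all 4 (-0.77, -0.87, -0.77 and -0.86). LRPPRC, which stabilises mitochondrial messenger RNA, was at 286, 308 and 239 CPM in untreated HCT116 and 88.9, 91.3 and 192 CPM in oxpl-R (-1.16, adjusted p = 0.0132). With oxaliplatin in HCT116, 8 genes of this list fell (29.6%) and 1 rose (3.70%), with a median of -0.70. These counts were 13 and 3 without the 3 libraries, with a median of -0.84 (background 13.1% and 15.5%). The genes that fell include FASTKD2 (-1.66) and PRORP (-1.38), both involved in processing mitochondrial RNA.

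Of 43 measured assembly factors, 4, 5, 9 and 9 were higher and 2, 3, 6 and 5 lower in oxpl-R over the 4 treatments in the order untreated, doxycycline, oxaliplatin and both. In untreated cells these are 9.30% and 4.65%, and with oxaliplatin 20.9% and 14%, where 13.7% and 12% of all genes were called. The counts without the 3 libraries were 16, 23, 7 and 6 higher and 6, 3, 10 and 5 lower. COX17, the copper chaperone of complex IV, was higher in all 4 (1.33, 1.43, 1.23 and 1.11, and 0.68 and 0.86 in the last 2 without the 3 libraries) and COX19, which also serves complex IV, in all 4 (0.67, 0.80, 0.96 and 0.70), of which the last 2 were not called without the 3 libraries (0.48 and 0.50). OXA1L, which inserts proteins into the inner membrane, was lower in all 4 (-0.72, -0.95, -0.42 and -0.58), and not called under oxaliplatin without the 3 libraries (-0.36). In HCT116 with oxaliplatin 5 rose and 5 fell (11.6% each), or 18 and 4 without the 3 libraries, with SDHAF1, an assembly factor of complex II, at 1.02 and SCO2, a copper chaperone of complex IV, at 1.07.

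The 77 mitochondrial ribosomal proteins included 5 higher (6.49%) and 8 lower genes (10.4%) in untreated oxpl-R, with a median of 0.12. In HCT116 with oxaliplatin 10 were higher (13%) and 8 lower (10.4%), with a median of -0.07, and without the 3 libraries 31 and 8, with a median of 0.28. The 80 cytosolic ribosomal proteins, which are not OXPHOS genes but are also short and abundant transcripts, included 6 higher (7.50%) and no lower gene in untreated oxpl-R with a median of 0.41, above the 0.31 of the OXPHOS genes. Of 13 regulators of mitochondrial genes 4 were lower in untreated oxpl-R and none higher, and PPRC1, a coactivator of nuclear mitochondrial genes, was lower under all 4 treatments (-0.65, -0.88, -1.11 and -0.99). Of 11 genes of the tricarboxylic acid cycle 3 were lower and none higher in untreated oxpl-R (median -0.36), and of 16 glycolytic genes 1 was higher and 2 lower (median -0.09). Among 9 measured subunits and carriers outside the symbol rule 1 was higher and none lower (median 0.51). MT-RNR1 and MT-RNR2 had medians of -0.57, -1.04, -0.92 and -1.10 over the 4 line comparisons, with MT-RNR1 called lower in each of the last pair. Under oxaliplatin MT-RNR1 was at 1273, 4448 and 6202 CPM in oxpl-R against 12309, 10530 and 6222 CPM in HCT116. Without the 3 libraries it was at -1.15 (adjusted p = 0.000381) under oxaliplatin and -1.41 (adjusted p = 1.4e-05) under both. None of 49 nuclear pseudogenes of mitochondrial genes was called in any comparison, and 1 of 46 was without the 3 libraries, with oxaliplatin in oxpl-R.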

How the data were processed

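RNA libraries of 24 cultures, in 8 groups of 3, were sequenced in pairs on an Illumina NovaSeq X after mRNA library preparation. The deposited table holds estimated counts per gene, which the authors made with Salmon 1.6.0 after trimming with Trimmomatic, summed to genes on the GRCh38 build, and did not normalize. Whether the counting used strand is not given in the sources used here. A second deposited table, named as TPM, also holds estimated counts per its values and served as an alternative. In alphabetical order the tables used here end at SETP6 and TSC22D3.

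Counts were rounded to whole numbers. All 24 samples entered 1 quasi-likelihood fit in edgeR 4.0.16 (R 4.3.3) with TMM scaling and a mean for each group, over the 19452 genes with any count, and p-values were adjusted by the Benjamini-Hochberg method over all of them. A gene was called at an adjusted p below 0.05. SE is the absolute log2 fold change divided by the square root of the F statistic. The steps were tested on simulated data. CPM values are TMM-scaled and gene positions are from GENCODE on GRCh38.

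The genes and lists were chosen with earlier results of these data known. Named were all 13 mitochondrial genes, the SDH genes, CYC1, NDUFAB1, NDUFB7, NDUFB5 and NDUFA2, the 3 highest and 3 lowest called nuclear genes of each comparison of groups, and the 3 called genes with the greatest difference in response for each treatment. Other genes in the text, including NDUFS7, SDHAF1, LRPPRC and the genes of the lists, were chosen after their values were seen.

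The alternatives were DESeq2 1.42.0, RLE scaling, total counts, filterByExpr, the second table, added pseudogene counts, the compared groups alone, a replicate block, and each replicate left out. Chosen after seeing the data were the correction for GC content (an offset per library from a lowess curve, with a GC value for 82 of 82 genes), the omission of the 3 libraries that stand apart, and their combinations. The curve was fitted without the genes of mitochondrial DNA, and its offset was then applied to them by their GC content. The labels do not say that replicate numbers mark shared material. Same-numbered samples deviated together, with all 3 correlations above 0.1, in 2 of the 10 comparisons of groups, namely between the lines under oxaliplatin (0.145, 0.197 and 0.260) and for both agents in oxpl-R (0.321, 0.198 and 0.652).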

Additional observations from a re-analysis of the deposited data

Results flagged for a closer look

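The response to oxaliplatin differed between the lines by an edgeR test of the interaction for 3 genes named by rule. The difference, oxpl-R less HCT116 on the log2 scale, was -1.29 for COX5B (SE 0.30, adjusted p = 0.0136), -1.13 for COX8A (SE 0.29, adjusted p = 0.0319) and -1.09 for CYC1 (SE 0.26, adjusted p = 0.0151), each from 3 samples in each of 4 groups. In HCT116 all 3 treated samples were above all untreated ones in each gene. In oxpl-R the groups overlapped for COX5B, and for COX8A and CYC1 all treated samples were below all untreated ones, by a very narrow gap for COX8A. Such a separation downward occurred in 7 of the 69 nuclear genes in oxpl-R, and its share over all genes is not given here. Neither COX8A nor CYC1 was called for oxaliplatin in oxpl-R.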

How the results depend on the processing

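RLE scaling, the second table, added pseudogene counts and the replicate block kept every count of genes called, both directions together, within 1.5 times. By direction, the 2 nuclear genes lower in oxpl-R under doxycycline, CYC1 and NDUFA10, became 0 with RLE scaling and in the second table, and in the second table oxaliplatin in oxpl-R called 2 higher and 0 lower, without COX5A. With the block, 24 nuclear genes were called between the lines under oxaliplatin in place of 23, none for both agents in oxpl-R, and no named gene lost its call. In the other settings that follow the cause was not tested.

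Between the untreated lines the 9 nuclear calls became 35 with the groups alone, 28 without the 3 libraries that stand apart, 14 with GC correction and block, and 30 with GC correction without the 3, and with 1 library left out 3 to 9. The 0 mitochondrial calls became 2, 1 and 1 with the groups alone, without the 3 and with GC correction without the 3, and 0 to 1 with 1 library left out. Under doxycycline the 14 nuclear calls became 22 by DESeq2, 26 alone, 40 without the 3 and 41 with GC correction without the 3, and 4 to 19 with 1 left out (5 without HCT116 replicate 1 or 2, 4 without oxpl-R replicate 2), and 2 mitochondrial genes were called without the 3. Under oxaliplatin the 23 became 11 alone, 15 alone without the low library and 15 to 26 with 1 left out (15 without oxpl-R replicate 3). The 1 mitochondrial call there became 0 without the 3 or alone without the low library, 2 with GC correction, 3 with GC correction and block and 3 with GC correction without the 3, and 0 to 3 with 1 left out. Under both agents the 13 became 3 to 13 with 1 left out (3 without HCT116 replicate 1, 7 and 8 without oxpl-R replicates 2 and 3), and 1 mitochondrial gene was called with GC correction without the 3, and 0 to 1 with 1 left out.

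For oxaliplatin in HCT116 the 19 nuclear calls became 44 without the 3, 12 with GC correction with or without block, 43 with GC correction without the 3, and 6 to 31 with 1 left out (10 and 6 without untreated replicates 1 and 2, 7, 12 and 31 without treated replicates 1, 2 and 3). The 0 mitochondrial calls became 5 alone, 7 without the 3, 1 with GC correction with or without block, 12 with GC correction without the 3, and 0 to 4 with 1 left out. In oxpl-R the 2 nuclear calls became 0 alone with or without the low library, 4 without the 3, 5 with GC correction with or without block, 6 with GC correction without the 3 (which called 1 mitochondrial gene) and 0 to 2 with 1 left out (0 without any 1 untreated replicate). For doxycycline in HCT116 4 genes were called alone. For both agents in HCT116 the 12 became 19 alone, 27 without the 3, 35 with GC correction without the 3 and 6 to 16 with 1 left out (6 without untreated replicate 2, 7 without treated replicate 2), with 1 and 2 mitochondrial calls alone and with GC correction without the 3. For both agents in oxpl-R the 0 became 2 by DESeq2, 1 with filterByExpr, 1 alone, 1 without the 3, 2 with GC correction without the 3 and 0 to 1 with 1 left out. The 5 line differences in response to oxaliplatin became 2 with total counts, 10 by DESeq2, 25 without the 3, 9 alone without the low library, 24 with GC correction without the 3 and 0 to 18 with 1 left out.

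The log2 ratio of mitochondrial to nuclear sums between the lines went from -0.19 to 0.184 in untreated cells and from -0.34 to -0.056 under doxycycline when the median log2 level replaced the sum. ATP5PB with oxaliplatin in HCT116 went from -0.91 to 0.029 with GC correction without the 3. The number of libraries, 3 a group or 2 where 1 was left out, limits the precision.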
